A study of Mus musculus with 4 samples.

Results

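Integrins and the proteins that couple them to the actin cytoskeleton were followed across 4 mouse oral cancer cell lines. The members were the integrin genes of the array annotation, with Itga6 and Itgb4 left out by the rule, and a fixed set of 18 genes for kindlins, talins, vinculin, tensins, paxillin, zyxin, integrin-linked kinase (ILK) and its partners. In all, 39 of the 19505 named genes were members, namely 15 integrin alpha chains, 7 integrin beta chains and 17 of the 18 focal adhesion genes. Itga1, Itga10 and Ptk2 were not analysed here. The rule picks genes by name.

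All lines came from C57BL/6 mice given 4-NQO (4-nitroquinoline 1-oxide, a chemical carcinogen) and arecoline (an areca nut alkaloid), and the labels name no transgene or further treatment. M1-2 and M2-3 were parental lines from separate tongue tumours. NHRI-HN1 was selected from M1-2, and NHRI-HN2 from M2-3, by growth as spheres in suspension, after which both were returned to dishes with serum. The study set NHRI-HN1, the line that formed tumours in immunocompetent mice, against the other 3. RNA from each line was put on 1 Clariom S array, so no line had a replicate, and each origin stood for 1 tumour. Sphere selection and the passages it took cannot be told apart in a derived line. In bulk RNA fewer cells of a type cannot be told apart from less RNA per cell.

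Values are the deposited expression values, taken as log2. The log base was not stated, so 1 unit need not be a 2-fold change, and levels of one gene are compared only between lines, never with another gene. Over the named genes the array medians lay between 4.75 and 4.96, and the lower quartiles of all probe sets between 3.02 and 3.16. Values near those quartiles had little room to be lower.

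The cell type label was checked against marker genes. Of 15 keratinocyte markers, 11 were above the array median in M1-2 and 1 in NHRI-HN1, with 14 in M2-3 and 14 in NHRI-HN2, and their mean log2 values in that order were 8.83, 3.66, 13.78 and 13.11. The basal keratin Krt5 was listed at 3.09 in NHRI-HN1 and at 4.68 in M1-2, against 17.24 in M2-3 and 16.46 in NHRI-HN2. Krt5 did not stand for all markers in M1-2, where Krt14 was 15.38, while NHRI-HN1 had 3.39 for Krt14. Krt17, Perp, Pkp1 and Cdh1 were also high in M1-2, from 13.53 to 15.34. Below the array median of M1-2, like Krt5, were Krt15, Dsg3 and Epcam, at 4.20, 3.72 and 3.15. Skeletal muscle markers, 13 genes, had mean log2 values of 4.85 in M1-2 and 11.01 in NHRI-HN1, with 3.59 in M2-3 and 4.08 in NHRI-HN2. For 11 fibroblast markers the means were 6.28, 7.55, 3.55 and 5.56 in the same order. NHRI-HN1 was at least 1 unit above M1-2 for 4 of them and below for 2. Col3a1 was 6.89 in M1-2 and 16.55 in NHRI-HN1, while Col1a1 was 11.66 and 8.48 and Col1a2 was 5.30 and 3.37. Leukocyte markers were low throughout, with 9 of 10 below the median of every array. These marker levels moved together with several integrin and focal adhesion genes described here, and their part in those differences was not tested.

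Integrins are transmembrane receptors made of an alpha and a beta chain, and the pair decides which matrix protein is bound. Talins and kindlins bind the beta tail and switch the receptor on, vinculin and the tensins tie it to actin, and paxillin, zyxin and the complex of ILK, PINCH and parvin build the adhesion and pass on signals. In stratified oral epithelium integrins hold basal cells to the basement membrane, and fibroblasts and myoblasts carry other alpha chains, many of them paired with beta1.

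The members varied more between the lines than the typical gene, though the list was chosen with earlier results of these data known. The median distance between a member's highest and lowest line was 3.14 log2 units, beside 1.05 over all 19505 genes, with 2.17 for the integrins and 3.66 for the focal adhesion genes. Among genes above the array median in at least 1 line the median range was 3.54 for 32 members and 1.64 for 11154 genes. A range of 4 units or more was seen in 14 of 39 members, where 7.09% of all genes had one. Those 14 were Itga2, Itga4, Itga5, Itga7, Itga11, Itgb3, Itgb6, Fermt1, Fermt2, Tns1, Tns2, Tns4, Lims2 and Parvb. At the other end, 7 of 39 members stayed below the median of every array, beside 8351 of all 19505 genes. They were the leukocyte integrin chains Itgad, Itgae, Itgal, Itgam, Itgax and Itgb2, and Fermt3, the kindlin of blood cells. Itgb7, another leukocyte chain, was above the median of every array, at 9.69 to 9.99.

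With 1 array per line, a line was said to stand apart for a gene when it lay at least 1 log2 unit beyond all 3 others. M1-2 stood above for 8 of 39 members (4.34% of all genes) and below for 3 (3.57% of all genes). NHRI-HN1 stood above for 6 (5.89% of all genes) and below for 4 (4.99% of all genes). M2-3 stood above for 0 (3.06% of all genes) and below for 6 (3.19% of all genes). NHRI-HN2, by contrast, stood above for only 1, Itga9 (0.943% of all genes), and below for 0 (0.415% of all genes). M2-3 was the lowest line for 21 of the 39 members, beside 4896 of all 19505 genes.

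A second pattern set the lines of one tumour against those of the other. Both M1-2 and NHRI-HN1 were at least 1 unit above both M2-3 and NHRI-HN2 for 8 of 39 members (3.97% of all genes), namely Itga5, Fermt2, Tln1, Tns1, Tns2, Ilk, Parva and Zyx. Both were at least 1 unit below for 4 of 39 members (7.2% of all genes), namely Itga2, Itgb6, Fermt1 and Tns4. A derived line is no independent sample of its tumour, so these splits carry no test.

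Among the collagen-binding alpha chains, Itga2, the partner of beta1 in the collagen receptor of epithelial cells and platelets, followed the tumour of origin. Its log2 values were 3.13 in M1-2 and 4.25 in NHRI-HN1, against 11.01 in M2-3 and 10.97 in NHRI-HN2. The gap between the nearest lines of the origins was 6.72 units. Itga11, the fibrillar collagen receptor chain of fibroblasts, was high in M1-2 alone, at 10.09, beside 3.16 in NHRI-HN1, 5.46 in NHRI-HN2 and 2.64 in M2-3. NHRI-HN1 minus M1-2 was -6.93 log2 units for Itga11, and NHRI-HN1 lay at the lower quartile of its array.

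The alpha chains that bind the RGD peptide motif of fibronectin and vitronectin split in behaviour. Itga5, which with beta1 forms the main fibronectin receptor, had log2 values of 9.95 in M1-2 and 8.59 in NHRI-HN1, with 4.92 in M2-3 and 6.33 in NHRI-HN2. Both lines of the M1-2 origin were above both of the M2-3 origin, with a gap of 2.26 units. Itgav, shared by several vitronectin and TGF-beta activating receptors, differed little, at 10.44, 10.90, 10.22 and 10.76 in the order M1-2, NHRI-HN1, M2-3 and NHRI-HN2. Itga8 and Itga2b likewise ranged over no more than about a unit, from 4.78 to 5.83 and from 5.11 to 6.10.

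The laminin receptors showed opposite positions of NHRI-HN1. Itga3, the laminin-332 receptor chain of keratinocytes, was 11.54 in NHRI-HN1 against 13.55 in M1-2, 13.88 in NHRI-HN2 and 13.69 in M2-3, so the other 3 lines lay close together. Itga7, the main laminin receptor chain of skeletal muscle, was 11.29 in NHRI-HN1 against 6.26 in M1-2, 7.40 in NHRI-HN2 and 3.61 in M2-3. Itga7 was above the parent in both derived lines. Itga4, which binds fibronectin and VCAM-1 and is carried by leukocytes and myoblasts, was 8.89 in NHRI-HN1 against 5.14 in M1-2, 4.17 in NHRI-HN2 and 4.10 in M2-3. The related Itga9 was highest in NHRI-HN2, at 5.24, beside 2.79 in M1-2, 2.93 in NHRI-HN1 and 3.18 in M2-3.

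Among the beta chains, Itgb1, the common partner of most alpha chains listed here, was far above the median of every array, at 16.90 in M1-2 and 15.72 in NHRI-HN1, with 14.61 in M2-3 and 15.72 in NHRI-HN2. Itgb5, a vitronectin receptor chain, had the same order at its ends, at 13.20 in M1-2 and 12.04 in NHRI-HN1, with 11.15 in M2-3 and 11.88 in NHRI-HN2. Itgb3, the other main partner of Itgav on adhesive cells, spread further, from 10.23 in M1-2 through 6.81 in NHRI-HN2 and 6.72 in NHRI-HN1 to 4.54 in M2-3. All 3 were therefore highest in M1-2 and lowest in M2-3, with the derived lines between them.

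The beta chains that partner Itgav in epithelial cells behaved otherwise. Itgb6, an epithelial chain that activates latent TGF-beta, was 4.68 in M1-2 and 6.42 in NHRI-HN1, with 8.35 in M2-3 and 8.95 in NHRI-HN2, so both lines of the M2-3 origin were higher. Itgb8, which also activates latent TGF-beta, was lowest in NHRI-HN1, at 5.98, beside 9.03 in M1-2, 7.93 in NHRI-HN2 and 9.33 in M2-3. Itgb7, which is not one of these Itgav partners, stayed between 9.69 and 9.99 in all 4 lines. The plot of integrin values by line shows these positions side by side.

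**Figure D1:**
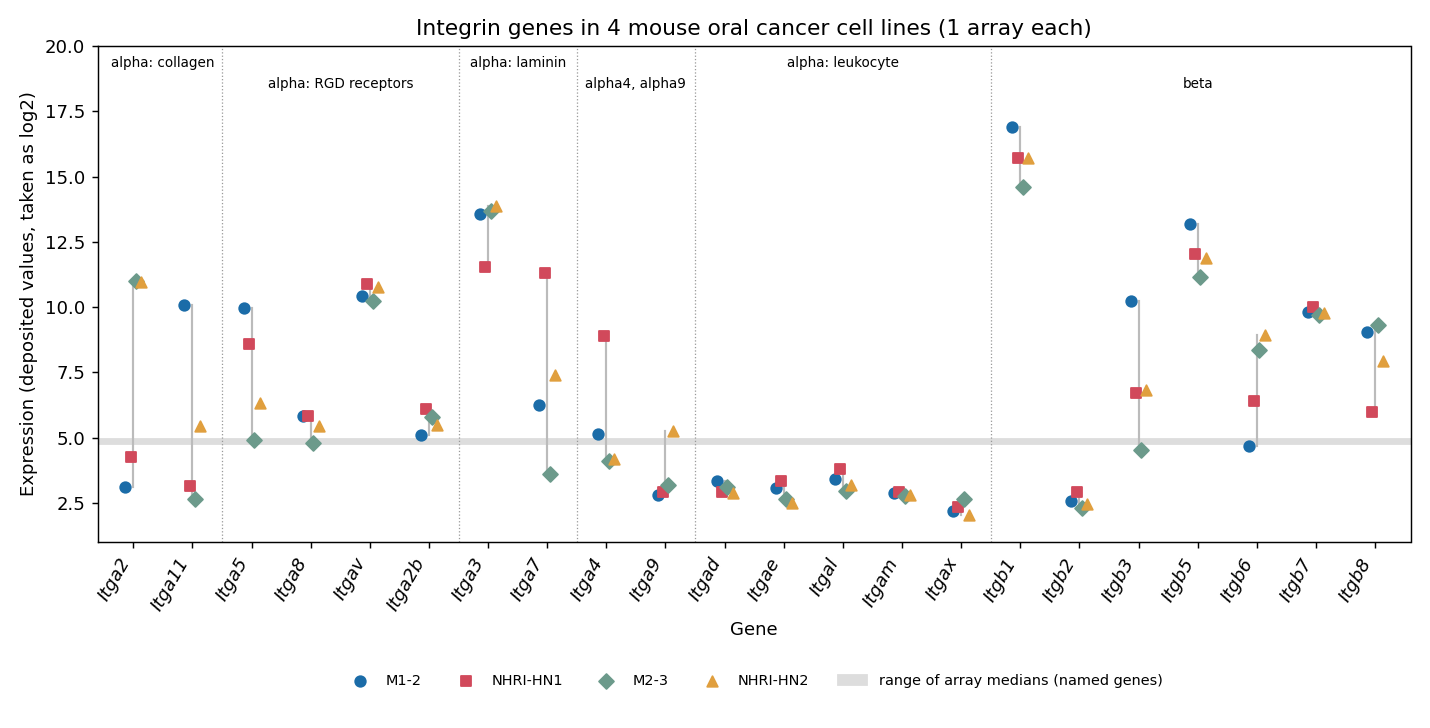
Log2 expression of the 22 integrin genes (vertical axis) by gene (horizontal axis), grouped by chain and ligand, 1 point per line and 1 array per point. Grey bars join the lowest and highest line, the grey band is the range of the array medians over named genes, and Itga2, Itga7 and Itga11 have the longest bars at 7.88, 7.68 and 7.45 units.

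The kindlins divided by tumour of origin in opposite directions. Fermt1 (kindlin-1), the epithelial kindlin, was 3.62 in M1-2 and 2.81 in NHRI-HN1 against 11.97 in M2-3 and 12.03 in NHRI-HN2, a gap of 8.35 log2 units between the nearest lines. Fermt2 (kindlin-2), the broadly expressed kindlin of mesenchymal cells, was 11.02 in M1-2 and 10.26 in NHRI-HN1 against 5.28 in M2-3 and 7.74 in NHRI-HN2. The origins did not overlap for either gene, and Fermt1 was low in the lines in which Fermt2 was high.

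Promoters of 4 of the 12 members split by origin are shown as examples, chosen after the values were seen: Fermt1, Itga2 and Tns1 had the widest gaps between the origins, and Itga5 is the fibronectin receptor chain. RefSeq promoter windows of GRCm38.p6, taken as the 250 bases before the annotated start, were matched for 28 of the 39 members. On both strands 6 motifs were searched, with any overlap between matches recorded, and capitals mark the matches. These were the AP-1 element TGANTCA, the GC box GGGCGG, the E-box CAGCTG, the TEAD element GGAATG, the Grainyhead element AACCGG and the CArG box of serum response factor. The windows of Fermt1 (chr2:132946037-132946286, minus strand), Itga2 (chr13:114932101-114932350, minus strand), Itga5 (chr15:103366792-103367041, minus strand) and Tns1 (chr1:74124549-74124798, minus strand) read 5′ to 3′ as follows.
Fermt1: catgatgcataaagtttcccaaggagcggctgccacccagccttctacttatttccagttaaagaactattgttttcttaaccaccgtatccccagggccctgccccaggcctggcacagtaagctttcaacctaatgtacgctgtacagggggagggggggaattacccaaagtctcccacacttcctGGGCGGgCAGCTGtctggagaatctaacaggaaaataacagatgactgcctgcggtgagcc
Itga2: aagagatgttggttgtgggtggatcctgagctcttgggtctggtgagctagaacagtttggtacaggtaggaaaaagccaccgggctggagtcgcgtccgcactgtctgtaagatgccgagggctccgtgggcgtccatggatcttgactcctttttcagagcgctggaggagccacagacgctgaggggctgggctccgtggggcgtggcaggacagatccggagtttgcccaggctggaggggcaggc
Itga5: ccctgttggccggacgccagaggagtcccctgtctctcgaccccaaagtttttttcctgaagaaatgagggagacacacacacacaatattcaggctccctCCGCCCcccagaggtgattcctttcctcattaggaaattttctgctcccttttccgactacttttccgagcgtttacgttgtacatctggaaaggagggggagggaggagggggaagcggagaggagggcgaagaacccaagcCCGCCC
Tns1: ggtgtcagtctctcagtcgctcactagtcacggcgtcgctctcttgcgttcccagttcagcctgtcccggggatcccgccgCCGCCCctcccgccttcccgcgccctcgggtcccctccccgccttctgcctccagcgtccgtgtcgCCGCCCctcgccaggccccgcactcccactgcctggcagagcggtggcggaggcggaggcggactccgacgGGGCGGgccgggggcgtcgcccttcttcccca

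Fermt1 held a GC box and an E-box, Itga5 held 2 GC boxes and Tns1 held 3, while Itga2 had none of the 6 motifs in its window. No 2 matches overlapped in these windows. The GC box stood in 32.7% of all 32851 windows and the E-box CAGCTG in 13%, so both are common, and a match is a description of the letters and not of a bound site. The AP-1 element (6.75% of all windows) was found for Itgax and Zyx, the TEAD element (12.6%) for Itgb1 and Vcl, the Grainyhead element (5.62%) for Ilk, and the CArG box (1.47%) for Fermt2, Itgb6 and Vcl. Over members with a window the median GC content was 62.4%, beside 52.4% over all windows.

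Talins and vinculin carry the force from the integrin tail to actin. Tln1 (talin-1), the main activator of integrins, was 15.99 in M1-2 and 15.49 in NHRI-HN1 against 12.33 in M2-3 and 13.14 in NHRI-HN2. Vcl (vinculin), which binds stretched talin, was highest in M1-2 at 14.17, with 12.59 in NHRI-HN1, 11.99 in NHRI-HN2 and 11.03 in M2-3. Tln2 (talin-2), a paralog abundant in striated muscle and brain, was instead highest in NHRI-HN1, at 8.82, beside 6.66 in M1-2, 5.62 in NHRI-HN2 and 5.88 in M2-3. Talin-1 thus followed the tumour of origin, vinculin did not reach a gap of 1 unit between the origins, and talin-2 set NHRI-HN1 apart.

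Tensins bind integrin tails and actin in mature adhesions, except Tns4 (also called Cten), which lacks the actin-binding region and is found in epithelia. The log2 value of Tns4 was 3.09 in NHRI-HN1, near the lower quartile of its array, against 15.21 in M1-2, 16.98 in NHRI-HN2 and 17.27 in M2-3. NHRI-HN1 was the one line in which Tns4 was low. Tns1 was 12.20 in NHRI-HN1 and 9.82 in M1-2 against 4.36 in M2-3 and 4.88 in NHRI-HN2. Tns2 had the same order at its upper end, at 11.38 in NHRI-HN1 and 8.86 in M1-2 against 6.23 in M2-3 and 6.72 in NHRI-HN2. For both genes the M1-2 origin was above the M2-3 origin and NHRI-HN1 was more than 2 units above its parent. Tns3 was lowest in M1-2, at 6.98, beside 9.42 in NHRI-HN1, 10.07 in NHRI-HN2 and 9.14 in M2-3.

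The ILK complex joins beta tails to actin through a PINCH protein (Lims1 or Lims2) and a parvin (Parva or Parvb). Ilk itself was 15.13 in M1-2 and 14.27 in NHRI-HN1 against 11.72 in M2-3 and 12.29 in NHRI-HN2. Parva, the widely expressed parvin, was 12.87, 11.60, 9.12 and 10.49 in M1-2, NHRI-HN1, M2-3 and NHRI-HN2, so the origins did not overlap for either gene. Parvb, the parvin abundant in heart and skeletal muscle, was 9.50 in NHRI-HN1 against 3.03 in M1-2, 2.54 in NHRI-HN2 and 2.77 in M2-3. The other 3 lines were all at or below the lower quartile for Parvb. Lims1 varied little, between 13.12 and 14.33, whereas Lims2 was 6.87 in M1-2 and between 2.61 and 3.05 in the other lines.

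The promoter window of Parvb (chr15:84231793-84232042, plus strand) is given because Parvb is the member whose level was called higher in NHRI-HN1. Its matches were 2 GC boxes and an E-box CAGCTG. Of the 28 matched members the E-box was also in windows of Fermt1, Itga2b, Itga4, Itga9 and Itgb5, whose levels followed no common pattern over the lines.
Parvb: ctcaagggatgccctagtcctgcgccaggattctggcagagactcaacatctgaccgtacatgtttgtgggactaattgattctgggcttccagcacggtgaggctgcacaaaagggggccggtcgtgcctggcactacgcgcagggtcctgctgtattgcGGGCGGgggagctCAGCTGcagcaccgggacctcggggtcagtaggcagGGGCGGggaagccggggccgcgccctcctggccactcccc

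Paxillin and zyxin are LIM-domain scaffolds of early and of mature adhesions. Pxn (paxillin) was lowest in NHRI-HN1, at 8.76, beside 10.62 in M1-2, 11.55 in NHRI-HN2 and 11.06 in M2-3. Zyx (zyxin) followed the tumour of origin, at 13.08 in M1-2 and 12.36 in NHRI-HN1 against 10.77 in M2-3 and 10.68 in NHRI-HN2. The plot of focal adhesion genes by line shows the longest bars for Tns4 and Fermt1.

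**Figure D2:**
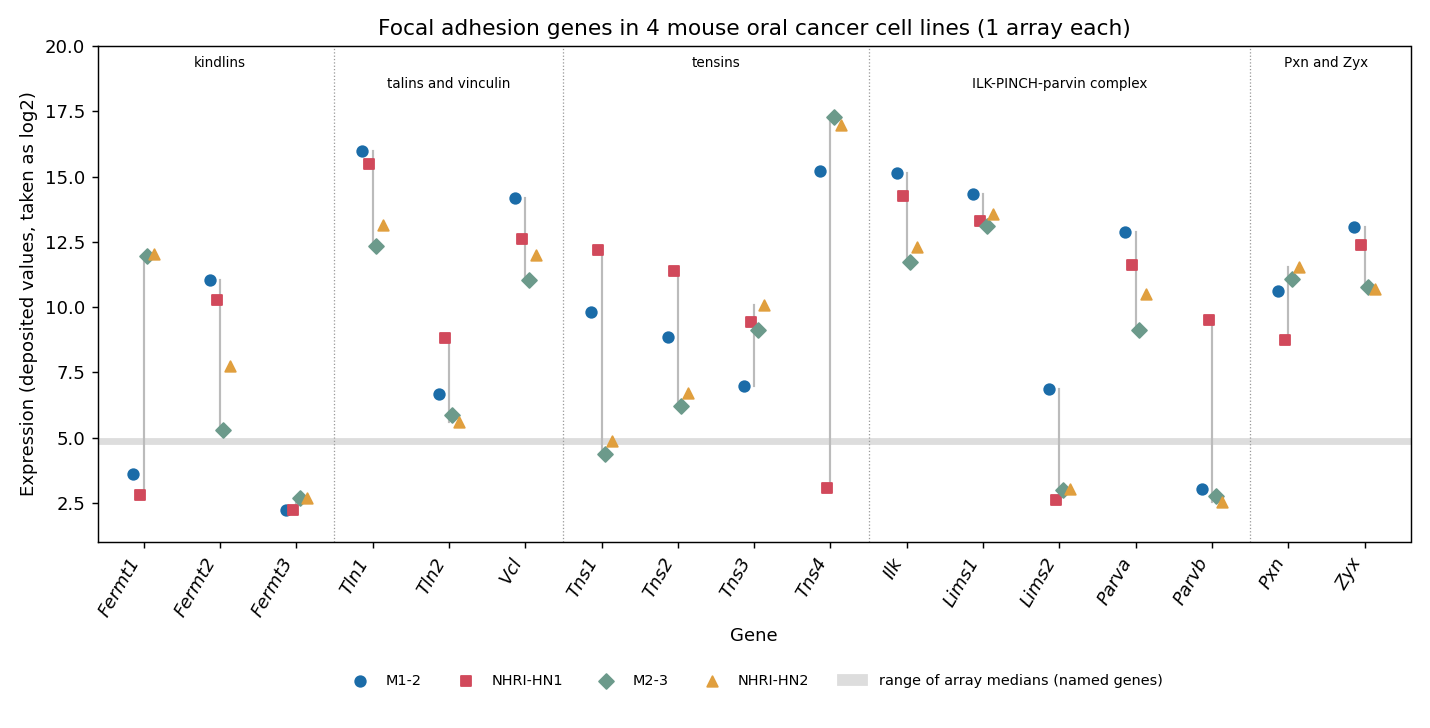
Log2 expression of the 17 focal adhesion genes (vertical axis) by gene (horizontal axis), grouped by role, 1 point per line and 1 array per point, with grey bars from the lowest to the highest line and a grey band for the range of array medians over named genes. Tns4 spans 14.18 units and Parvb 6.96 because NHRI-HN1 alone is away from the other lines, whereas Fermt1 spans 9.22 with 2 lines at each end.

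NHRI-HN1 was then tested against the mean of the other 3 lines, the grouping of the study. In this limma fit over all 19505 genes, Parvb rose and Tns4 fell, and no other member passed an adjusted p of 0.05. Parvb was 6.72 log2 units higher in NHRI-HN1 (SE 0.50, limma adjusted p = 0.034), above all 3 other lines, and it was the 1 of 39 members called higher, where 0.508% of all genes were. Tns4 was -13.40 log2 units from the mean of the others (SE 0.95, limma adjusted p = 0.034), below all 3, and was the 1 of 39 called lower, where 0.113% of all genes were. Together 2 of 39 members were called, beside 0.62% of all genes. The error in this test is the spread among 3 different lines with 2 residual degrees of freedom, not the spread among replicates. Limma draws that error towards the spread of genes at a like level. Of these 3 lines, NHRI-HN2 was derived from M2-3, so they are not independent. For a gene in which NHRI-HN1 lies beyond all 3, leaving out a line or blocking by origin cannot turn the direction. Both calls ended in limma without the intensity trend (adjusted p = 0.053), with a block for the origin (0.052), without M2-3 (adjusted p = 0.18) and without NHRI-HN2 (adjusted p = 0.44), while both differences kept their direction, and the adjusted p ranged over all alternatives from 0.015 to 0.44 for Tns4 and from 0.018 to 0.44 for Parvb. In the same fit 5 of 15 keratinocyte markers were called lower and 7 of 13 skeletal muscle markers higher in NHRI-HN1, and their part in the calls of Tns4 and Parvb was not tested.

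At an unadjusted p under 0.05, which is no call, limma listed 9 of 39 members beside 1814 of all 19505 genes. The higher ones were Itga4 at 4.42 units (SE 0.72), Itga7 at 5.53 (SE 1.57), Tln2 at 2.77 (SE 0.75), Tns2 at 4.11 (SE 1.21) and Parvb. Itga3 at -2.17 (SE 0.50), Itgb8 at -2.78 (SE 0.83), Pxn at -2.32 (SE 0.67) and Tns4 made up the lower ones. The limma adjusted p was 0.11 for Itga4, 0.26 for Itga3 and between 0.35 and 0.41 for Tln2, Itga7, Pxn, Tns2 and Itgb8. Tns1 was 5.85 units higher with an SE of 2.31 (limma adjusted p = 0.55), its M1-2 value lying between that of NHRI-HN1 and those of the other lines. With a block for the origin the limma difference was 2.38 units (SE 0.60) for Tns1 and 2.52 units (SE 0.59) for Tns2, with adjusted p of 0.23 and 0.20. Without M1-2, the parent of NHRI-HN1, limma called 7 of 39 members (Itga2, Itga4, Fermt1, Tns1, Tns2, Tns4 and Parvb) and 707 of all 19505 genes, beside 121 of all genes with M1-2 included. That fit set NHRI-HN1 against M2-3 and its derived line only. Itga2 (-6.74 units) and Fermt1 (-9.19 units) were lower in it, and M1-2, left out, was low for both, at 3.13 and 3.62. With all 4 lines the median difference over the 39 members was 0.24 units, beside -0.01 over all genes.

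**Figure D3:**
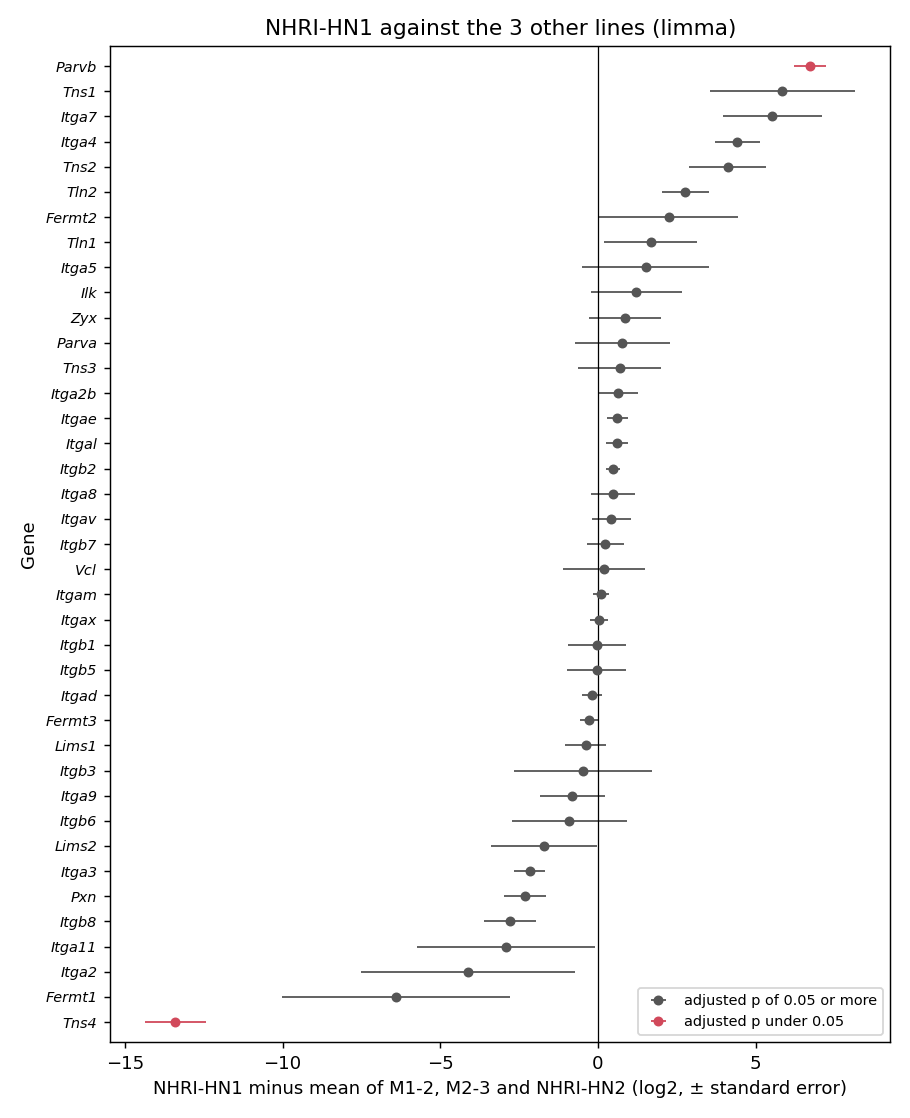
Difference of NHRI-HN1 from the mean of the other 3 lines in log2 units (horizontal axis) for each of the 39 members (vertical axis), ordered by size. Bars are ± 1 limma standard error, red points are Parvb (6.72) and Tns4 (-13.40), the members with an adjusted p under 0.05, and Fermt1 at -6.40 has the widest bar, M1-2 being low as well.

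Each sphere-derived line was also set beside its own parent. NHRI-HN1 was at least 1 log2 unit higher than M1-2 for 9 of 39 members (12.1% of all genes) and lower for 13 (12.2% of all genes). NHRI-HN2 was at least 1 unit higher than M2-3 for 8 of 39 members (6.52% of all genes) and lower for 1, Itgb8 (5.69% of all genes). In NHRI-HN1 the lower members reached from Tns4 at -12.12, Itga11 at -6.93, Lims2 at -4.26 and Itgb3 at -3.51 to Lims1 at -1.04. Its higher members were led by Parvb at 6.47, Itga7 at 5.03 and Itga4 at 3.75.

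In NHRI-HN2 the higher members were Itga7 at 3.79, Itga11 at 2.82, Fermt2 at 2.46, Itgb3 at 2.27, Itga9 at 2.06, Itga5 at 1.41, Parva at 1.37 and Itgb1 at 1.11. Itga7 was the 1 of 39 members higher in both derived lines (1.78% of all genes), and Itgb8, at -3.05 and -1.40, the 1 lower in both (1.16% of all genes). Lower in NHRI-HN1 and higher in NHRI-HN2 than the parent were 5 of 39 members, namely Itga5, Itga11, Itgb1, Itgb3 and Parva (1.84% of all genes). The reverse held for 0 of 39 (0.82% of all genes). Each pair is 1 array against 1 array, so these counts have no replicate check. At a threshold of 2 units 5 became 2 (Itga11 and Itgb3), and the share of all genes at that threshold was not counted.

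**Figure D4:**
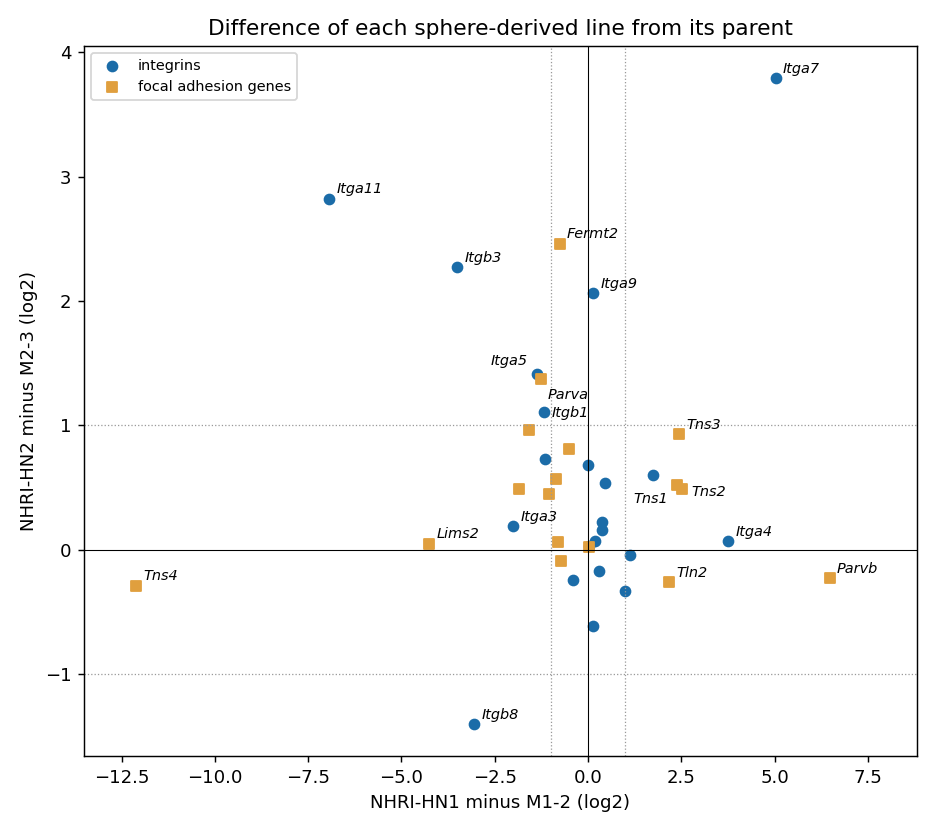
NHRI-HN1 minus M1-2 (horizontal axis) against NHRI-HN2 minus M2-3 (vertical axis), both in log2 units, for the 22 integrins (circles) and 17 focal adhesion genes (squares), each point 1 gene from 1 array per line. Dotted lines mark 1 unit, Itga7 lies at the upper right at 5.03 and 3.79, and Itga11, Itgb3, Itga5, Itgb1 and Parva lie at the upper left.

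Other genes of the same adhesions were tested in the same fit. Of 31 further adaptors and actin linkers, limma called 0, with 3 higher and 6 lower at an unadjusted p under 0.05. Over all 19505 genes 1146 were higher and 668 lower at that limit. The LIM-only adaptor Fhl1 was 14.85 in M1-2 and 6.71 in NHRI-HN1, with 8.23 in M2-3 and 12.25 in NHRI-HN2. Sorbs2, a vinculin-binding adaptor, was 4.01 in NHRI-HN1 and between 8.56 and 9.20 in the other lines (limma adjusted p = 0.079). The vinculin-binding vinexin gene Sorbs3 was 9.49 and 9.59 in M1-2 and NHRI-HN1 against 2.94 and 2.96 in M2-3 and NHRI-HN2, and 10 of the 31 adaptors were higher in the M1-2 origin by the rule of size (3.97% of all genes) with 0 lower (7.2% of all genes). Of 26 signalling kinases, scaffolds and GTPase regulators, limma called 0 and listed 0 at an unadjusted p under 0.05. The exchange factor Arhgef6 (alpha-PIX), a partner of the parvins, was 8.63 in M1-2 and 9.48 in NHRI-HN1, with 2.60 in M2-3 and 4.26 in NHRI-HN2, and the kinase Src was lowest in NHRI-HN1, at 7.65, beside 8.63 to 10.83.

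Of 19 activation regulators and membrane partners limma called 0. At an unadjusted p under 0.05 it listed 3 higher and 4 lower, beside 1146 and 668 of all 19505 genes. Apbb1ip (RIAM), which brings talin to the membrane, was 6.89 in M1-2 and 9.70 in NHRI-HN1, with 3.52 in M2-3 and 6.04 in NHRI-HN2. Cd82 was 13.96 in NHRI-HN1 and between 9.89 and 11.32 in the other lines. Sdc1 was 11.01 in NHRI-HN1 and between 12.50 and 14.79 in the other lines. Itgb1bp2 (melusin), a striated-muscle protein that binds the beta1 tail, was 5.94 in NHRI-HN1 and between 3.11 and 3.65 in the other lines (limma adjusted p = 0.16). Of 25 integrin ligands limma called 2 higher (0.508% of all genes) and 1 lower (0.113% of all genes). Lama2, the laminin chain of the muscle basement membrane to which Itga7 binds, rose by 7.76 log2 units (limma adjusted p = 0.035), from 3.03 to 3.94 in the other lines to 11.31. Edil3, an RGD ligand of Itgav receptors, rose by 7.17 units (limma adjusted p = 0.034). Cdh1 (E-cadherin), the ligand of the Itgae receptor and itself one of the keratinocyte markers, fell by 12.02 units (limma adjusted p = 0.034), with Itgae near the lower quartile in every line. The median difference of NHRI-HN1 from the other lines was 0.16 log2 units over the adaptors, 0.04 over the signalling genes, 0.39 over the activation regulators and membrane partners and 0.34 over the ligands, beside -0.01 over all genes. No gene of any list was called by limma without the intensity trend, with a block for the origin, without M2-3 or without NHRI-HN2.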

How the data were processed

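Total RNA of 4 mouse lines was labelled and hybridized to Clariom S arrays, 1 per line. The authors deposited 1 expression value per probe set, taken here as log2, made with Partek 7 per the submitters' processing notes. Background correction, scaling, log base and probe build were not given in the sources used here. Of 22206 probe sets, 19572 had 1 gene symbol in the platform annotation and 2634 had none and were left out. Probe sets of 1 gene (55 genes, no member) were averaged, giving 19505 genes. The number of arrays limits the precision.

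NHRI-HN1 was compared with the 3 other lines with limma 3.58.1 in R 4.3.3 (lmFit and eBayes with an intensity trend), with Benjamini-Hochberg adjustment over all genes and a threshold of 0.05. The script was tested on simulated data. Other comparisons used a rule of size (1 log2 unit) with no test. All 4 values were given for members that limma called, that set NHRI-HN1 apart, that split by origin, or that had the highest levels. For context lists, up to 4 genes were eligible, first those called and then those with the largest differences. Values of Itga11, Itgav, Itga9, Itgb3, Tns3 and Lims2, and marker values, were added after the values were seen. The members and lists were chosen with earlier results of these data known. Alternatives covered scaling, dim genes, the variance trend, the tumour of origin as a block, the control lines, probe set choice, the size threshold and a floor at the lower quartile. Promoters were RefSeq windows, and figures used matplotlib 3.10.9.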

Additional observations from a re-analysis of the deposited data

Results flagged for a closer look

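In 5 members the derived line and its parent differed in opposite directions in the tumours, by at least 1 log2 unit on both sides. For Itga11, NHRI-HN1 minus M1-2 was -6.93 and NHRI-HN2 minus M2-3 was 2.82. For Itgb3 the differences were -3.51 and 2.27. Itga5 had -1.36 and 1.41, Parva -1.27 and 1.37, and Itgb1 -1.18 and 1.11. In each of these genes M1-2 was the highest line and M2-3 the lowest. With 1 array per line the difference between the pairs was not tested.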

How the results depend on the processing

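The limma difference was repeated 80 times for the 10 members in which NHRI-HN1 lay at least 1 unit beyond all 3 others. For such members, leaving out a line or blocking by origin cannot reverse the direction, so the count of 0 reversed is no support. Of the 80 repeats, 69 kept their side of the threshold, most of them for members not called in the main fit. Another 8 lost the call and 3 gained one (Itga4, Tns1 and Tns2 without M1-2). The 8 were Tns4 and Parvb, with limma adjusted p of 0.053 without an intensity trend, 0.052 with tumour of origin as a block, 0.18 without M2-3 and 0.44 without NHRI-HN2. The limma count of called members, 2, became 0 without the trend (9 at an unadjusted p under 0.05), 0 with the block (14) and 0 to 7 when 1 other line was left out, with 7 without M1-2 and 0 without M2-3 (7 unadjusted) or NHRI-HN2 (5 unadjusted). Over all genes 121 became 0 without the trend (1947 unadjusted), 0 with the block (2708 unadjusted) and 0 to 707 on leaving out a line, with 1214 unadjusted without M2-3 and 993 without NHRI-HN2. The cause was not tested. Quantile normalization, leaving out the dimmest genes and the brightest probe set kept Tns4 and Parvb as the called members.

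At a threshold of 2 units in place of 1, members beyond the others numbered 4 in place of 11 for M1-2 and 3 in place of 6 for M2-3, origin splits 7 in place of 12, differences of NHRI-HN1 from M1-2 13 in place of 22, those of NHRI-HN2 from M2-3 5 in place of 9, members shifted the same way in both pairs 1 in place of 2, and those shifted in opposite ways 2 in place of 5. The share of all genes at 2 units was not counted, so whether members dropped more than other genes is not known. With values under the lower quartile raised to it, the median range over all genes was 0.93 in place of 1.05. The fit with tumour of origin as a block estimated NHRI-HN1 minus its parent M1-2. In it NHRI-HN2 and M2-3 shared a mean, so their difference entered the error and was not estimated. That fit left 1 residual degree of freedom. One array per line, an unstated log base and dim values without detection calls limit every value.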
